A study of Mus musculus with 6 samples.

Results

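The integrins, the laminins and the hemidesmosome proteins hold epithelial cells to the basement membrane, and their genes were followed here in 3 sorted populations of mouse skin. The members were the genes whose annotated symbol begins with Itga, Itgb, Lama, Lamb or Lamc followed by a subunit number or by M, L, X, V or E, together with Col17a1, Dst, Plec and Cd151. Only probe sets that name 1 gene were taken, and a gene with several was read from the one whose log2 signal, averaged over the 6 arrays, was highest. This gave 37 members out of 18193 genes, read from 86 probe sets, and 14 of the members had 1 probe set. Itga11 was not analysed here.

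RNA was measured on 1 Affymetrix array for each of 6 groups. Mice labelled Ezh1/2 2KO (2KO), mutant in both Ezh1 and Ezh2, gave cells of the basal epidermis, of the hair matrix and of the outer root sheath (ORS), and mice labelled Ezh1/2 WT (WT) gave the same populations. Basal epidermis is the dividing layer of the epidermis, the matrix is the dividing part of the hair bulb, and the ORS is the outer layer of the follicle, continuous with the basal epidermis. All mice were 14 days old, of mixed C57B6 and CD1 background, and the cells were purified by FACS from skin. The 2KO basal epidermis RNA came from females, and that of the other 5 groups from females and males. The labels do not say in which cells or by which alleles Ezh1 and Ezh2 were deleted, how many mice were pooled per sample, or whether samples of 1 genotype came from shared animals. They also do not give the surface markers of the sort. Integrin α6, the product of the member Itga6, is a widely used surface marker in keratinocyte sorting, and a part of the gate in the level of Itga6 between populations was not tested.

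An integrin is a dimer of an α and a β chain that spans the membrane and binds the extracellular matrix outside and the cytoskeleton inside. A laminin is a trimer of an α, a β and a γ chain that assembles into the sheet of the basement membrane. In keratinocytes the α6β4 integrin binds laminin-332 and is joined to keratin filaments through the hemidesmosome, a plaque of plectin (Plec), BP230 (an epithelial product of Dst) and collagen XVII (Col17a1), with the tetraspanin Cd151. Ezh1 and Ezh2 are alternative histone methyltransferases of Polycomb repressive complex 2 (PRC2), a repressor that in mammals is found chiefly at promoters rich in CG dinucleotides.

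Values are MAS5 signals on the deposited scale. A log2 ratio was taken after raising signals to a floor of 83.2, the middle value of the probe sets that are not controls, and members are called higher or lower at a 2-fold ratio, the fold the series text uses. A member with both arrays of a pair below the floor was not measured in that pair. Where 1 array was below it, the ratio is a bound, marked by the words at least, and the floor itself fixes its direction. With 1 array per group no difference has a replicate check, there is no spread to set a ratio against, and no test was made. Signals of different probe sets are not on one scale, so levels are compared only within a member.

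The 2KO arrays read lower for both targeted genes. Ezh2 read 432 in 2KO and 2563 in WT basal epidermis, 1725 in 2KO and 3578 in WT matrix, and 378 in 2KO and 2151 in WT ORS. The sum of 8 matrix markers was 33992 in 2KO and 42975 in WT matrix, and at most 5413 in the other populations. Krt35 was the largest part of it, with 18316 in 2KO and 19670 in WT matrix. Of the 8 markers, 1 was at least 2-fold higher in 2KO matrix (Shh, 2.86-fold). Another 2 were lower (Msx2, 2.78-fold, and Dlx3, 2.21-fold). Krt10, a gene of differentiating keratinocytes, read 34141 in 2KO and 28000.4 in WT cells labelled basal epidermis. Of the 3 epidermal keratins listed for this population, Krt1 likewise differed little there, with 17735 in 2KO and 16394 in WT. Krt77 went the other way, with 112 in 2KO and 7616 in WT basal epidermis, 67.8-fold lower. In ORS Krt77 read 68.8 in 2KO and 1937 in WT, at least 23.3-fold lower. These 3 keratins are not specific to the basal layer, and the part of differentiating cells in the basal epidermis samples was not tested. Markers of other cells moved with genotype in the matrix pair, where 9.03% of all measured genes were at least 2-fold higher and 1.62% lower. Summed fibroblast markers were 37200 in 2KO and 20208 in WT matrix, with 7 of the 8 measured at least 2-fold higher in 2KO. Summed leukocyte markers were 5376 in 2KO and 1500 in WT matrix, with 4 of 9 measured ones higher, while Cd3e and Cd3g were below the floor on both arrays. Summed skeletal muscle markers were 3346 in 2KO and 674 in WT matrix, with 5 of 7 measured ones higher, and Ckm, Myh4 and Ttn below the floor on both. In bulk RNA, fewer cells of a type and less RNA per cell cannot be told apart.

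The hemidesmosome and laminin-332 genes were among the members that differed most between the WT populations. Laminin-332, which holds the products of Lama3 and Lamb3, is the main laminin of the epidermal basement membrane. Lamb3 read 6043 in WT basal epidermis, 2656 in WT ORS and 209 in WT matrix. Col17a1 read 21573 in WT basal epidermis, 13286 in WT ORS and 1200.0 in WT matrix. Dst read 15386 in WT basal epidermis, 9054 in WT ORS and 911 in WT matrix. For each of these genes WT basal epidermis stood highest, WT ORS next and WT matrix far lowest. The ratio of WT basal epidermis over WT matrix was 28.9-fold for Lamb3, 18.0-fold for Col17a1 and 16.9-fold for Dst.

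The 300 bases around the transcription starts of these genes are shown for reading beside the 2KO ratios below, from RefSeq tables of the GRCm38.p6 build, 250 bases before to 50 after the start on the strand of the gene, with CG dinucleotides in capitals. Lamb3 lies at chr1:193301744-193302043 (plus strand) and holds 2 CG, Col17a1 at chr19:47691993-47692292 (minus strand) with 5 CG, and the upstream start of Dst at chr1:34011345-34011644 (plus strand) with 31 CG.
Lamb3: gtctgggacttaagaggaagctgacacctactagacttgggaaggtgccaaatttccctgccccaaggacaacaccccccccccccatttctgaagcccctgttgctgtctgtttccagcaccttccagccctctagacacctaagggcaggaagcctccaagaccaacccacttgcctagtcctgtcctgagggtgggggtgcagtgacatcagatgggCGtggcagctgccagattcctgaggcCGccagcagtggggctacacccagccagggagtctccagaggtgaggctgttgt
Col17a1: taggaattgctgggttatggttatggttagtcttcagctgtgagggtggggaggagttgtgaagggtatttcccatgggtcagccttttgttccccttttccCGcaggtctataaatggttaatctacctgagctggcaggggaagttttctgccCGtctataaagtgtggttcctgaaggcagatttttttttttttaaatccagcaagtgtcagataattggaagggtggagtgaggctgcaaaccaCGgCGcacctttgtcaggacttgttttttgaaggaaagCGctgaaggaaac
Dst: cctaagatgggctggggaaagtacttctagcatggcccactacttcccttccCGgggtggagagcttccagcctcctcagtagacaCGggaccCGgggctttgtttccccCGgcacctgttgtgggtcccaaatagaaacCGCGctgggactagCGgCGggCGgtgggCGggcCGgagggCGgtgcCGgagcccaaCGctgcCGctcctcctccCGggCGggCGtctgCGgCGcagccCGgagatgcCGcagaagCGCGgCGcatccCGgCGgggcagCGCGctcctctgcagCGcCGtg
Of 32851 such windows, 85.9% held at least as many CG as Lamb3, 62.0% as many as Col17a1 and 10.6% as many as this start of Dst. Lamb3 and Col17a1 thus start in windows with few CG, and Dst has 1 start of each kind, since its second start, at chr1:34160010-34160309, holds 6 CG. Windows were found for 24 of the 37 members, 29 in all, and 16 of the 29 held at least 10 CG, against 43.5% of all windows. CG reads the same on both strands, and the count is a description of these windows. Binding of PRC2 and methylation of histone H3 were not analysed here.

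The remaining genes of the hemidesmosome differed less between the populations. Itga6 read 14238 in WT basal epidermis, 10746 in WT ORS and 3033 in WT matrix. Its partner Itgb4, the β chain that carries the keratin link, read 2336 in WT basal epidermis, 1673 in WT ORS and 483 in WT matrix. Lama3, the α chain of laminin-332, read 5020.4 in WT basal epidermis, 2985 in WT ORS and 802 in WT matrix. These genes kept the order of Lamb3, with WT basal epidermis over WT matrix at 4.69-fold for Itga6, 4.83-fold for Itgb4 and 6.26-fold for Lama3. Plec, a linker of intermediate filaments used in many cell types, read 7226 in WT basal epidermis, 5013 in WT ORS and 2719.8 in WT matrix, a ratio of 2.66-fold. Cd151, which associates with laminin-binding integrins, read 6479 in WT basal epidermis, 7026 in WT ORS and 4145 in WT matrix, and was within 2-fold between all 3.

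In 2KO basal epidermis the same genes lay mostly a little below WT, and none reached 2-fold on its brightest probe set. Lamb3 read 3762 in 2KO and 6043 in WT, Col17a1 13761 in 2KO and 21573 in WT, and Dst 9469.9 in 2KO and 15386 in WT basal epidermis. The ratios were 1.61-, 1.57- and 1.62-fold below WT. The second brightest Dst probe set did pass 2-fold, with 4489 in 2KO and 10976 in WT basal epidermis, 2.45-fold lower. Itga6 (12321 in 2KO, 14238 in WT), Lama3 (4309.7 in 2KO, 5020.4 in WT), Cd151 (5422 in 2KO, 6479 in WT) and Plec (7026 in 2KO, 7226 in WT) differed by less than 1.5-fold. Itgb4 stood on the other side of WT, with 3394 in 2KO and 2336 in WT basal epidermis, 1.45-fold above it. Of the 8 genes 7 had a ratio below 0 on the log2 scale, with a median of -0.24 against 0.04 over all measured genes. With the mean over probe sets in place of the brightest one, Cd151 turned to 0.21 (-0.26 with the brightest).

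In 2KO matrix these genes stood above WT on the deposited scale, and 4 of the 8 passed 2-fold, as 9.03% of all measured genes did. With the hybridisation controls Lamb3 alone passed it (log2 ratio 1.04), with Dst at 0.81, Itgb4 at 0.67 and Plec at 0.41, and with the common median Plec (0.76) did not. Lamb3 read 666 in 2KO and 209 in WT matrix, 3.18-fold higher. Dst read 2476 in 2KO and 911 in WT matrix, 2.72-fold higher, and Itgb4 read 1194 in 2KO and 483 in WT matrix, 2.47-fold higher. Plec read 5593 in 2KO and 2719.8 in WT matrix, 2.06-fold higher. Each of these readings was above the floor on both arrays. Col17a1 read 2247 in 2KO and 1200.0 in WT matrix (1.87-fold above WT), Lama3 1192 in 2KO and 802 in WT (1.49-fold), Cd151 6102 in 2KO and 4145 in WT (1.47-fold) and Itga6 3365 in 2KO and 3033 in WT (1.11-fold).

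All 8 ratios were above 0 in the matrix on the deposited scale, with a median log2 ratio of 0.97. After scaling to the hybridisation controls, which moved the median of all genes to -0.58, Itga6 (-0.48), Lama3 (-0.06) and Cd151 (-0.07) lay on the other side of 0, and after scaling to a common median Itga6 (-0.13) did. Relative to all genes, the median of the measured members stood 0.56 higher on the deposited scale and 0.84 higher with the hybridisation controls. Of 4 basal keratinocyte markers, 2 were at least 2-fold higher in 2KO matrix, against 9.03% of all measured genes. Krt14 read 13804 in 2KO and 4805 in WT matrix, and Krt5 17690.2 in 2KO and 8423 in WT matrix. Krt15 read 5199.6 in 2KO and 2994 in WT matrix, and Trp63, a transcription factor of the basal layer, stood on the other side with 5325 in 2KO and 6411 in WT matrix. The summed ORS markers were 34588 in 2KO and 12784 in WT matrix, with 4 of 7 at least 2-fold higher, against the same 9.03%. The part of these cells, and of the fibroblast, leukocyte and muscle markers above, in the ratios was not tested.

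In ORS cells the hemidesmosome genes differed less between the genotypes. Lamb3 read 3279 in 2KO and 2656 in WT ORS, Col17a1 13462 in 2KO and 13286 in WT, Dst 9358 in 2KO and 9054 in WT, and Itga6 10462 in 2KO and 10746 in WT. On their brightest probe sets Col17a1, Dst and Itga6 were thus nearly equal on both arrays. The other Dst probe sets ranged in ORS from 1.25-fold below WT to 2.90-fold above it. Among the brightest probe sets the widest ratios were those of Lama3 and Itgb4. Lama3 read 5315 in 2KO and 2985 in WT ORS (1.78-fold above WT), and Itgb4 2945 in 2KO and 1673 in WT ORS (1.76-fold). Plec read 6770.0 in 2KO and 5013 in WT ORS, and Cd151 read 6991 in 2KO and 7026 in WT. None of the 8 reached 2-fold in ORS on its brightest probe set. The median log2 ratio was 0.18. Itgb4 lay above WT in all 3 populations, by 1.45-fold in basal epidermis, 2.47-fold in matrix and 1.76-fold in ORS.

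**Figure D1:**
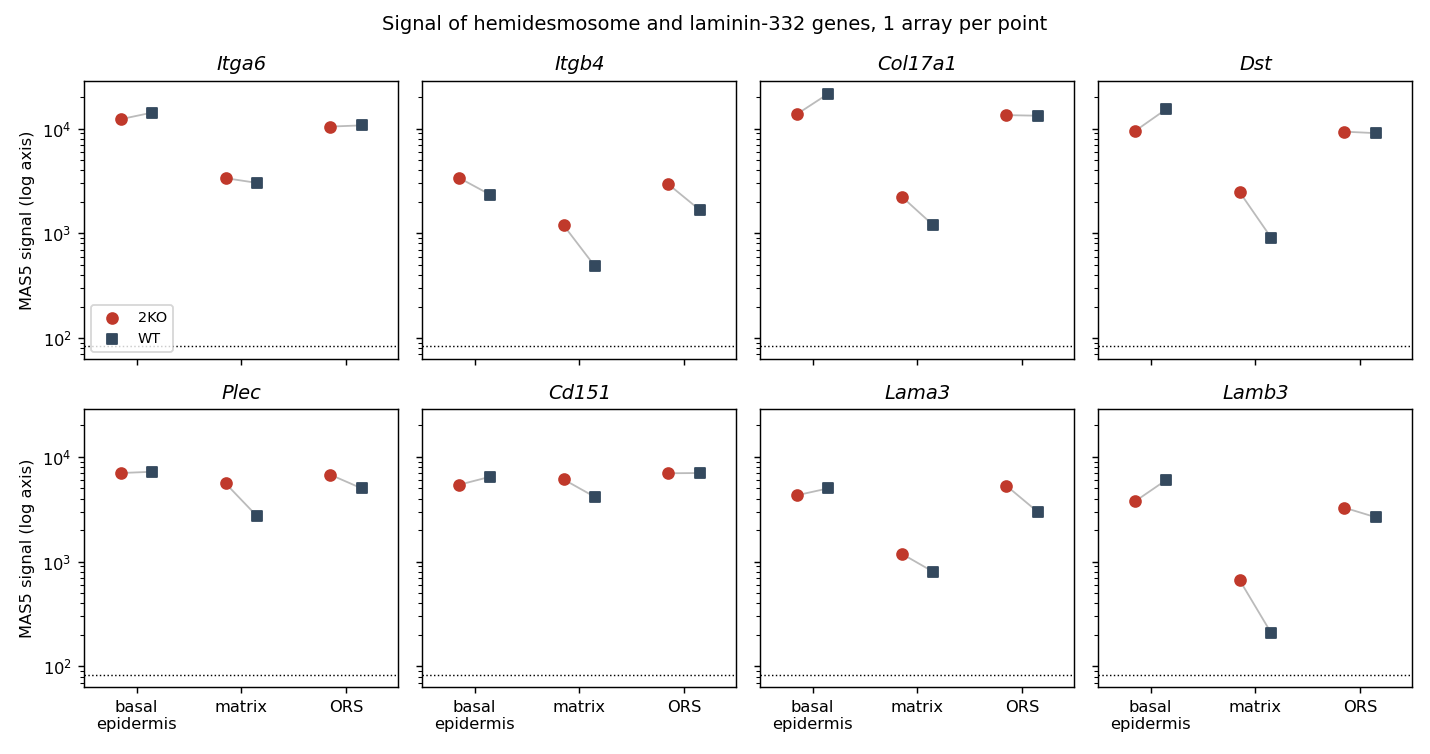
MAS5 signal (log axis) of 8 hemidesmosome and laminin-332 genes in basal epidermis, matrix and ORS, with 2KO as red circles and WT as dark squares, 1 array per point and the floor of 83.2 as a dotted line. Matrix cells read lowest for every gene in both genotypes, except Cd151 in 2KO, and Lamb3, Dst, Itgb4 and Plec were at least 2-fold higher in 2KO than in WT matrix.

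Among the laminin chains outside laminin-332, those of laminin-511 stood above WT in each population on the deposited scale, and Lama4 was lower in 2KO basal epidermis and 2KO ORS. Laminin-511, the product of Lama5, Lamb1 and Lamc1, is a broad epithelial laminin that is also abundant around the hair follicle. Lamb1 read 1577 in 2KO and 514 in WT basal epidermis, 4148 in 2KO and 2744 in WT matrix, and 5606 in 2KO and 3784 in WT ORS. It was 3.07-fold higher in 2KO basal epidermis, and above WT by 1.51-fold in matrix and 1.48-fold in ORS. In WT, Lamb1 was lowest in basal epidermis, where Lama3 and Lamb3 were highest. Basal epidermis was 7.36-fold lower than ORS and 5.34-fold lower than matrix, and ORS stood above matrix as for laminin-332.

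Lama5 read 999 in 2KO and 681 in WT basal epidermis, 1704 in 2KO and 952 in WT matrix, and 2905 in 2KO and 1367 in WT ORS, which was 2.12-fold higher in 2KO ORS. Lamc1, the γ chain shared by most laminins, read 1037 in 2KO and 679.8 in WT basal epidermis, 1058 in 2KO and 450.0 in WT matrix, and 2248 in 2KO and 1098 in WT ORS. It was 2.35-fold higher in 2KO matrix and 2.05-fold higher in 2KO ORS. All 9 ratios of the 3 genes, each from its brightest probe set, were above 0 on the deposited scale. A weaker Lamb1 probe set lay below 0 in matrix (-0.34) and ORS (-0.25). The second Lamc1 probe set lay below 0 in matrix (-0.18), with 109 in 2KO and 124 in WT. With the hybridisation controls the ratio of Lamb1 in matrix was -0.04, and with the mean over probe sets that of Lama5 in basal epidermis was -0.15. The 2-fold mark was passed by Lamb1 in basal epidermis, by Lamc1 in matrix, and by Lama5 and Lamc1 in ORS. Only the call of Lamb1 remained after scaling to the common median, where the log2 ratio was 0.95 for Lamc1 in matrix, 0.83 for Lama5 and 0.78 for Lamc1 in ORS, or to the hybridisation controls (0.60, 0.93 and 0.87). The Lamb1 call in basal epidermis was in turn not kept with the mean over probe sets.

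Lama4, the α chain of vascular and mesenchymal laminins, read 123 in 2KO and 322 in WT basal epidermis, and 327 in 2KO and 816 in WT ORS. It was 2.61-fold lower in 2KO basal epidermis and 2.49-fold lower in 2KO ORS. In matrix it read 89.9 in 2KO and 8.58 in WT, so that the WT array lay below the floor and the ratio was at least 1.08-fold. Summed endothelial markers were 858 in 2KO and 585 in WT basal epidermis, and 1043 in 2KO and 699 in WT ORS, with Pecam1 and Tek below the floor on both basal arrays. Summed fibroblast markers were 13802 in 2KO and 16966 in WT basal epidermis, and 23997 in 2KO and 17235 in WT ORS. Summed melanocyte and Schwann markers were 711 in 2KO and 1002 in WT basal epidermis, and 876 in 2KO and 1329 in WT ORS. The part of these cells in the Lama4 readings was not tested. In WT, Lama4 was at least 9.81-fold higher in ORS than in matrix.

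The remaining laminin chains were Lama2, Lama1, Lamb2 and Lamc3. Lama2, the α chain of muscle and nerve laminins, read 156 in 2KO and 82.1 in WT basal epidermis, 180.1 in 2KO and 42.5 in WT matrix, and 239 in 2KO and 105 in WT ORS. It was at least 2.16-fold higher in 2KO matrix and 2.27-fold higher in 2KO ORS. The summed skeletal muscle markers, as given above, were also higher in 2KO matrix, and in ORS they were 786 in 2KO and 572 in WT, with 7 of 10 below the floor in 2KO and 8 in WT; their part in the Lama2 reading was not tested. Lama1, the main α chain of embryonic basement membranes, was above the floor on 1 array, at 193 in WT basal epidermis against 35.1 in 2KO, at least 2.32-fold lower in 2KO. Lamb2 read 303 in 2KO and 164 in WT matrix (1.85-fold above WT) and was within 1.5-fold in the other pairs. Lamc3 was above the floor on the 2KO ORS array alone, at 89 against 80.1 in WT ORS.

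Among the integrin α chains, Itga8 and Itga5 had the widest differences between the genotypes, and both stood above WT in all 3 populations. The α8 chain pairs with β1 and binds nephronectin. Itga8 read 183 in 2KO and 93.6 in WT basal epidermis, 353 in 2KO and 69.4 in WT matrix, and 1135 in 2KO and 239 in WT ORS. It was 4.74-fold higher in 2KO ORS, at least 4.24-fold higher in 2KO matrix, and 1.96-fold above WT in basal epidermis. Nephronectin itself (Npnt) read 863 in 2KO and 1359 in WT basal epidermis, 1162 in 2KO and 167 in WT matrix, and 2784 in 2KO and 2843 in WT ORS. Ligand and receptor chain were thus both higher in 2KO matrix, by 6.95-fold for Npnt, and in ORS the receptor chain alone passed 2-fold. Summed fibroblast markers stood above WT in the matrix and ORS pairs, in ORS with 23997 in 2KO and 17235 in WT. In ORS 2 of the 9 measured ones were at least 2-fold higher, against 8.16% of all measured genes. The part of these markers in the Itga8 readings was not tested.

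The α5 chain pairs with β1 as the main fibronectin receptor. Itga5 read 183 in 2KO and 133 in WT basal epidermis, 318 in 2KO and 37.4 in WT matrix, and 769 in 2KO and 162 in WT ORS. It was 4.75-fold higher in 2KO ORS and at least 3.83-fold higher in 2KO matrix. Its other probe sets read the ORS difference smaller, with 352 in 2KO and 139 in WT ORS (2.53-fold) on one and at least 2.30-fold on another. In matrix the same pair of probe sets read at least 1.73-fold and at least 1.03-fold above WT, so the matrix call rests on 1 probe set. Fn1, which encodes fibronectin, read 3033 in 2KO and 1238 in WT matrix (2.45-fold higher), and 2029 in 2KO and 1469 in WT ORS.

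The promoter windows of Itga8, at chr2:12301895-12302194 (minus strand) with 23 CG, and of Itga5, at chr15:103366742-103367041 (minus strand) with 13 CG, are shown because these were the members furthest above WT, again with CG in capitals.
Itga8: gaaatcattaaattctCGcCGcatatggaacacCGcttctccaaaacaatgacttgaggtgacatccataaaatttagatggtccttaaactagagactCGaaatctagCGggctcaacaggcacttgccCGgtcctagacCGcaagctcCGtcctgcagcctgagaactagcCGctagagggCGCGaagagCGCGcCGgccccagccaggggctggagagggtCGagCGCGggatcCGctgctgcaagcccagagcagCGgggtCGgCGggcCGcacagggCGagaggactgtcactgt
Itga5: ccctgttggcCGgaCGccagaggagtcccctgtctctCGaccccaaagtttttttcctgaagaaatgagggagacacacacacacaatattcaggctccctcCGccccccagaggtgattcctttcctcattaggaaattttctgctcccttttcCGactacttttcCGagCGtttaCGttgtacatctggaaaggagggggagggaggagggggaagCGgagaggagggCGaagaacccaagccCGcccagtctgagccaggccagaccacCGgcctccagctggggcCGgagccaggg
As many CG were held by 21.5% of all windows for Itga8 and by 37.9% for Itga5. Both windows are richer in CG than those of Lamb3 and Col17a1, and poorer than the upstream window of Dst. Other members held few or many CG on either side of the 2-fold mark. Lama2, higher in 2KO matrix and 2KO ORS, held 1 CG, and Lama5, higher in 2KO ORS, held 24. Itgb1, with 27 CG, and Itgav, with 24 CG, were within 2-fold of WT in each population. A relation of CG count to the 2KO ratios was not tested.

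None of the other α chains passed 2-fold, although some ratios are bounds. Itga3, which pairs with β1 as a second laminin receptor of basal keratinocytes, read 1699 in 2KO and 1499 in WT basal epidermis, 859 in 2KO and 737 in WT matrix, and 2257 in 2KO and 1407 in WT ORS, at most 1.60-fold apart. Itgav, the α chain of the RGD-binding integrins, read 4379.9 in 2KO and 4943 in WT basal epidermis, 3444 in 2KO and 2866 in WT matrix, and 4170.3 in 2KO and 4726 in WT ORS, within 1.20-fold in each pair. Itga7, a laminin receptor of muscle, read 155 in 2KO and 30.7 in WT matrix, at least 1.86-fold above WT, and lay 1.55-fold above WT in basal epidermis and 1.49-fold above it in ORS. Itga1, a collagen receptor, was above the floor in ORS alone, with 201 in 2KO and 303 in WT. Itga2, another collagen receptor, read 68.5 in 2KO and 98.3 in WT basal epidermis, and 101 in 2KO and 36.7 in WT matrix. Itga10 reached 116 in 2KO matrix against 45.1 in WT, and Itga9 112 in 2KO ORS against 39.9 in WT. The ratios of Itga2, Itga10 and Itga9 are bounds from readings close to the floor.

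Of the 5 β chains outside the hemidesmosome and the leukocyte integrins, Itgb8 alone passed 2-fold. The β8 chain pairs with αv and activates latent TGFβ. Itgb8 read 601 in 2KO and 1187 in WT basal epidermis, 393 in 2KO and 131 in WT matrix, and 1883 in 2KO and 3035 in WT ORS. It was 3.01-fold higher in 2KO matrix, and lay 1.98-fold below WT in basal epidermis and 1.61-fold below WT in ORS. In WT its order was ORS, basal epidermis, matrix, with ORS 23.2-fold higher than matrix and basal epidermis 2.56-fold lower than ORS.

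Itgb1, the common partner of most α chains, read 2779 in 2KO and 2676 in WT basal epidermis, 1142 in 2KO and 1326 in WT matrix, and 2682 in 2KO and 3006 in WT ORS. Its 3 ratios were all within 1.16-fold. Itgb5 read 2153 in 2KO and 1542 in WT matrix and 1783 in 2KO and 945 in WT ORS, 1.89-fold above WT in ORS. Itgb6, whose αvβ6 dimer activates TGFβ in epithelium, read 215 in 2KO and 240.5 in WT basal epidermis, 121 in 2KO and 64.8 in WT matrix, and 157 in 2KO and 267 in WT ORS. Its second probe set put basal epidermis 1.97-fold above WT, and the brightest put it 1.12-fold below. Itgb3 was below the floor on all 6 arrays.

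Of the 7 leukocyte integrin chains, 4 were below the floor throughout. These were Itgae, Itgal, Itgam and Itgax. Leukocyte markers summed to 1500 to 7429 per array, of which the MHC class II genes H2-Eb1, H2-Ab1 and Cd74 were a large part, and Ptprc, carried by all leukocytes, was above the floor on the 2KO matrix and WT basal epidermis arrays alone. Itgb2, the β chain shared by the leukocyte-specific integrins, read 58.6 in 2KO and 101 in WT basal epidermis, 126 in 2KO and 32.9 in WT matrix, and 64.8 in 2KO and 202 in WT ORS. It was at least 2.43-fold lower in 2KO ORS and stood on the other side of WT in matrix, by at least 1.51-fold. In the ORS pair the leukocyte marker Lyz2 read 235 in 2KO and 551 in WT, and H2-Eb1 3517 in 2KO and 1148 in WT. Itga4 read 171 in 2KO and 87 in WT ORS, 1.96-fold above WT. Itgb7 stayed at or below 96.8.

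Over the 37 members together, 27 were measured in the basal pair, 28 in the matrix pair and 28 in the ORS pair. In 2KO basal epidermis 1 member was higher (Lamb1, 3.70% of those measured) and 2 were lower (Lama1 and Lama4, 7.41%), against 6.59% and 4.09% of all measured genes. In 2KO matrix 9 members were higher (32.1%) and 0 were lower, against 9.03% and 1.62% of all genes. In 2KO ORS 5 members were higher (17.9%) and 2 lower (7.14%), against 8.16% and 4.75% of all genes. The basal share was near that of all genes, and the matrix share of higher members was the one furthest from it. The 9 in matrix were Itga8, Itga5, Lamb3, Itgb8, Dst, Itgb4, Lamc1, Lama2 and Plec, and WT was below the floor for Itga8, Itga5 and Lama2. The 5 higher in ORS were Itga5, Itga8, Lama2, Lama5 and Lamc1, and the 2 lower were Lama4 and Itgb2.

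The median log2 ratio of measured members was -0.17 in the basal pair, 0.60 in the matrix pair and 0.37 in the ORS pair, against medians over all measured genes of 0.04, 0.03 and 0.01. Members below the floor in 1 group have a direction set by the floor. Among the 17 members above it on both matrix arrays, the median was 0.84 and 6 were higher, against -0.01 and 7.15% of such genes. After scaling to the hybridisation controls 3 members were higher in 2KO matrix, namely Itga8, Itga5 and Lamb3. The share of all genes higher at that scaling was not computed.

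**Figure D2:**
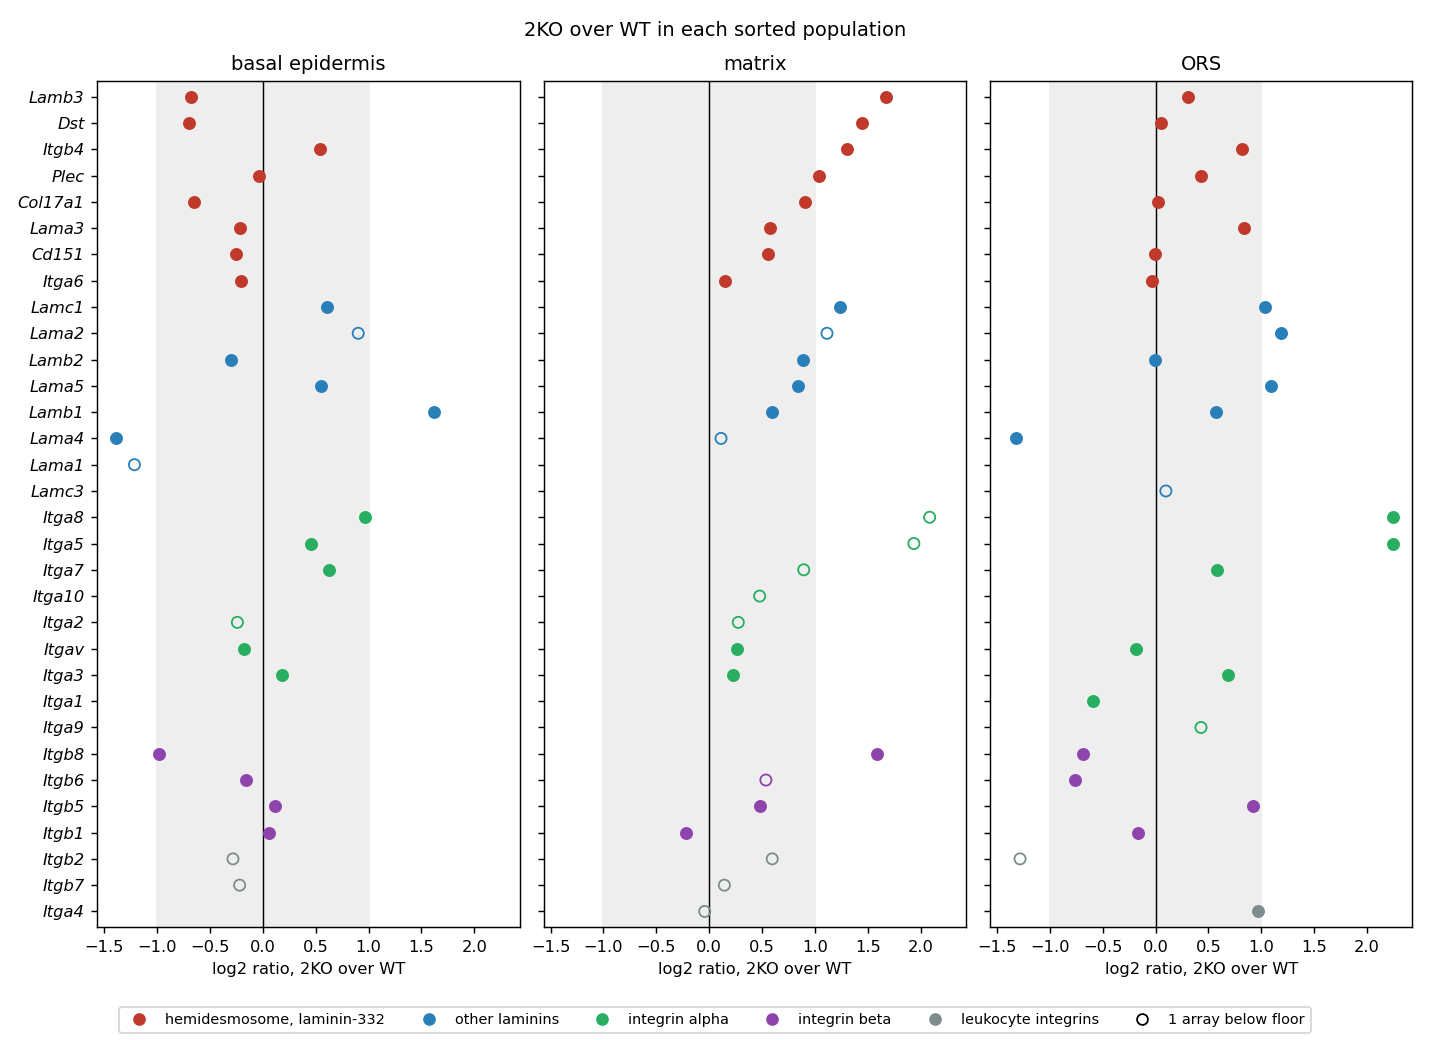
Log2 ratio of 2KO over WT for each measured member in basal epidermis, matrix and ORS, coloured by role, with the band of less than 2-fold in grey and open circles where 1 array of the pair is below the floor. On the deposited scale the 8 hemidesmosome and laminin-332 genes lie right of 0 in matrix, where scaling to the hybridisation controls puts Itga6, Lama3 and Cd151 left of it, and Itga8 and Itga5 lie furthest right in matrix and ORS.

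Of the WT comparisons, those with matrix held the most members past 2-fold. In WT basal epidermis over WT matrix 14 of 27 measured members were higher (51.9%) and 1 was lower (3.70%), against 13.8% and 11.3% of all genes, and the 1 lower was Lamb1. In WT ORS over WT matrix 15 of 26 were higher (57.7%) and 0 lower, against 13.9% and 8.6% of all genes. Between WT basal epidermis and WT ORS, 2 of 29 were higher (6.90%) and 6 lower (20.7%), against 4.15% and 5.88% of all genes. The 2 higher in WT basal epidermis were Lamb3 (2.27-fold) and Lama1 (at least 2.32-fold). The 6 lower were Lamb1, Itga1, Itgb8, Itga8, Lama4 and Lama5. Every comparison of a pair here shares arrays with another, and the WT matrix array also stands under the 2KO over WT ratios in matrix, so a low reading on that array enters both.

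The ratios of ORS over matrix are given for both genotypes side by side, with the same reservation. For Lamb3 ORS stood 4.92-fold higher than matrix in 2KO, and 12.7-fold in WT. For Dst the ratio was 3.78-fold in 2KO and 9.94-fold in WT, and for Col17a1 5.99-fold in 2KO and 11.1-fold in WT. For Itgb8 it was 4.79-fold in 2KO and 23.2-fold in WT. ORS and matrix thus remained apart in 2KO for these genes, by smaller ratios than in WT. Of the 17 members above the floor on all 4 arrays 12 had the smaller ratio in 2KO, where 50.9% of all such genes did. Among the 8 hemidesmosome and laminin-332 genes 7 did, with Lama3 (4.46-fold in 2KO, 3.72-fold in WT) the exception. This difference is the ORS effect minus the matrix effect of genotype and adds no measurement to them. Itga6 was 3.11-fold higher in ORS than in matrix in 2KO and 3.54-fold in WT.

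**Figure D3:**
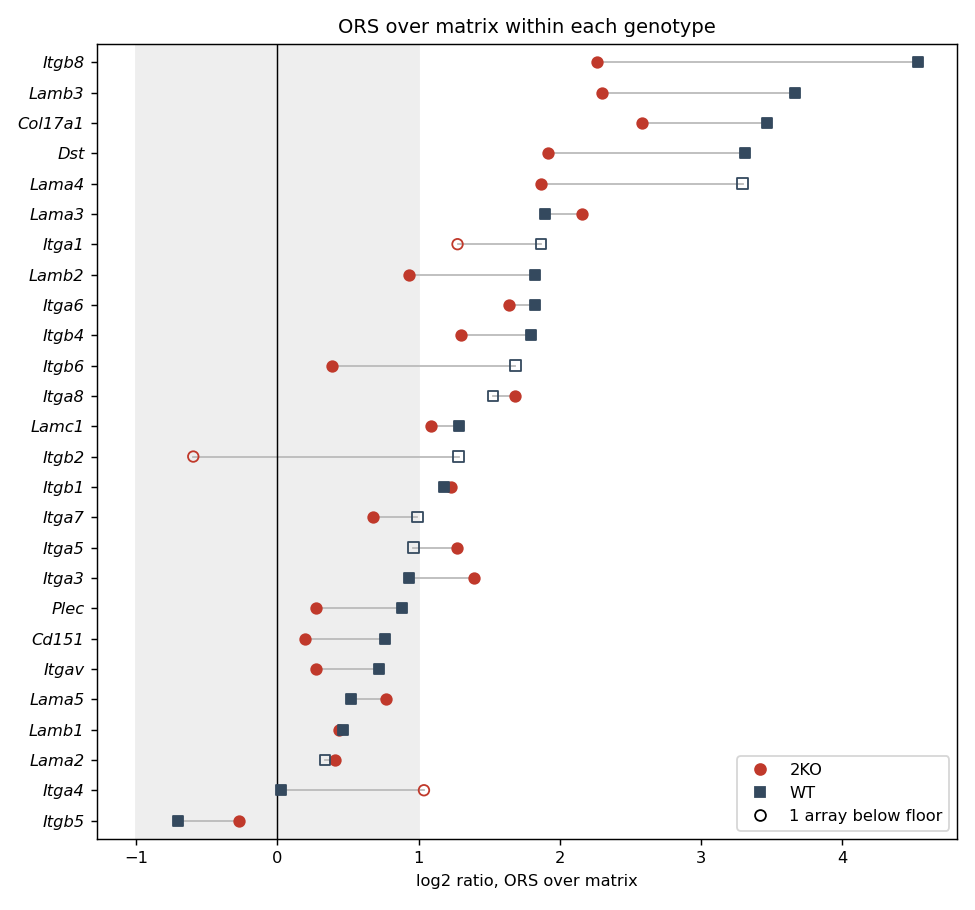
Log2 ratio of ORS over matrix within 2KO (red circles) and within WT (dark squares) for the 26 members measured in both, in the order of the WT ratio, with open symbols where 1 array is below the floor. Itgb8, Lamb3, Col17a1 and Dst have the widest WT ratios among members above the floor on both arrays, and each has a smaller one in 2KO.

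Of 22 listed genes of the basement membrane outside the members, 8 of the 19 measured in matrix were at least 2-fold higher in 2KO and 0 lower, where 9.03% and 1.62% of all genes were. In basal epidermis 0 of 18 measured were higher and 2 lower (6.59% and 4.09% of all genes), and in ORS 3 of 20 were higher and 1 lower (8.16% and 4.75% of all genes). Col7a1, the anchoring fibril collagen under the hemidesmosome, read 3594 in 2KO and 5271 in WT basal epidermis, 1315 in 2KO and 147 in WT matrix, and 5515 in 2KO and 1836 in WT ORS. It was 8.94-fold higher in 2KO matrix and 3.00-fold higher in 2KO ORS. Frem2, a protein of the Fraser complex that joins epidermis to dermis, read 473 in 2KO and 1496 in WT basal epidermis, and 1216 in 2KO and 331 in WT matrix, 3.16-fold lower and 3.67-fold higher. Col4a1, a chain of the collagen network, and Nid1, which bridges laminin and collagen IV, were 3.60- and 3.47-fold higher in 2KO matrix. Col4a6 was 2.13-fold lower in 2KO basal epidermis. In 2KO ORS Fbln1 was 2.86-fold and Fras1 2.44-fold higher, and Ntn4, a laminin-related netrin, was 3.39-fold lower, with 1164 in 2KO and 3949.7 in WT. Fibroblasts make many of these proteins, and the part of the higher fibroblast markers in 2KO matrix was not tested here or for the ligands that follow.

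Of 21 listed integrin ligands outside the laminins, 17 had a probe set that names 1 gene. Of the 12 measured in matrix 6 were higher in 2KO and 0 lower, against the same 9.03% and 1.62% of all genes. In basal epidermis 1 of 12 measured was higher and 2 lower (all genes 6.59% and 4.09%), and in ORS 3 of 13 were higher and 0 lower (all genes 8.16% and 4.75%). Tenascin C (Tnc) was the ligand higher in all 3 populations, with 2829 in 2KO and 1173 in WT basal epidermis, 1430.2 in 2KO and 237 in WT matrix, and 9277 in 2KO and 3953 in WT ORS. Periostin (Postn), a ligand of αv integrins, read 8188 in 2KO and 22431 in WT basal epidermis (2.74-fold lower), and 1700.2 in 2KO and 458 in WT matrix (3.71-fold higher). Thrombospondin (Thbs1) read 3575 in 2KO and 11497 in WT basal epidermis, 3.22-fold lower. Icam1, which leukocyte integrins bind, was 4.46-fold higher in 2KO matrix and 2.98-fold higher in 2KO ORS, and Tgfb3 was at least 4.94-fold higher in 2KO matrix. Fgg was at least 2.74-fold higher in 2KO ORS.

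The proteins that link integrins to actin and to tetraspanins differed in few cases. Of 28 such genes listed, 26 had a probe set that names 1 gene. In 2KO basal epidermis 3 of 25 measured were higher and 1 lower. In 2KO matrix 2 of 26 were higher and 2 lower, and in 2KO ORS 1 of 25 was higher and 0 lower. Of all genes, 6.59%, 9.03% and 8.16% were higher in these pairs, and 4.09%, 1.62% and 4.75% lower. Cd81, a tetraspanin that associates with integrins, read 8928 in 2KO and 4181 in WT basal epidermis, 6035 in 2KO and 2931 in WT matrix, and 8081 in 2KO and 3982 in WT ORS, and so passed 2-fold in all 3. Fermt2 (kindlin-2), an activator of β1 integrins, was 2.44-fold higher in 2KO basal epidermis and 2.56-fold higher in 2KO matrix. Tspan4 was 2.11-fold higher and Tns1, a tensin that binds β chains and actin, 2.35-fold lower in 2KO basal epidermis. In 2KO matrix Fermt3, the kindlin of blood cells, was 2.37-fold lower and Parvb at least 2.72-fold lower. In WT, Fermt3 read 749 in matrix, 105 in basal epidermis and 86.3 in ORS, while the summed leukocyte markers were lowest in matrix.

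Several probe sets of a gene did not always give one ratio. Of the members with more than 1 measured probe set, their log2 ratios spanned at least 1 for 4 of 13 in basal epidermis (Cd151, Dst, Itgb6 and Lamb1), 3 of 11 in matrix (Dst, Itga5 and Lamc1) and 2 of 13 in ORS (Dst and Itga5). None had probe sets at least 2-fold apart from WT in opposite directions. Dst, a long gene with neuronal, muscle and epithelial products, varied most. Its second brightest probe set read 4489 in 2KO and 10976 in WT basal epidermis, 1606 in 2KO and 1050.0 in WT matrix, and 6124 in 2KO and 7649.7 in WT ORS. Another read 2038 in 2KO and 2808 in WT basal epidermis, 1285 in 2KO and 138 in WT matrix, and 4684 in 2KO and 1614 in WT ORS. All Dst probe sets above the floor thus lay below WT in basal epidermis and above WT in matrix on the deposited scale, by 1.53- to 9.33-fold in matrix, and the files do not say which Dst products each one reads. Lamb1 was at least 2-fold higher in 2KO basal epidermis on both of its brighter probe sets, with 677 in 2KO and 243 in WT on the second. The second Lamc1 probe set, at 109 in 2KO and 124 in WT matrix, did not show the matrix difference. The weaker Lamb1 probe set lay below WT in matrix, at 278 in 2KO and 352 in WT, and in ORS, at 386 in 2KO and 460.3 in WT, where the brightest lay above.

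**Figure D4:**
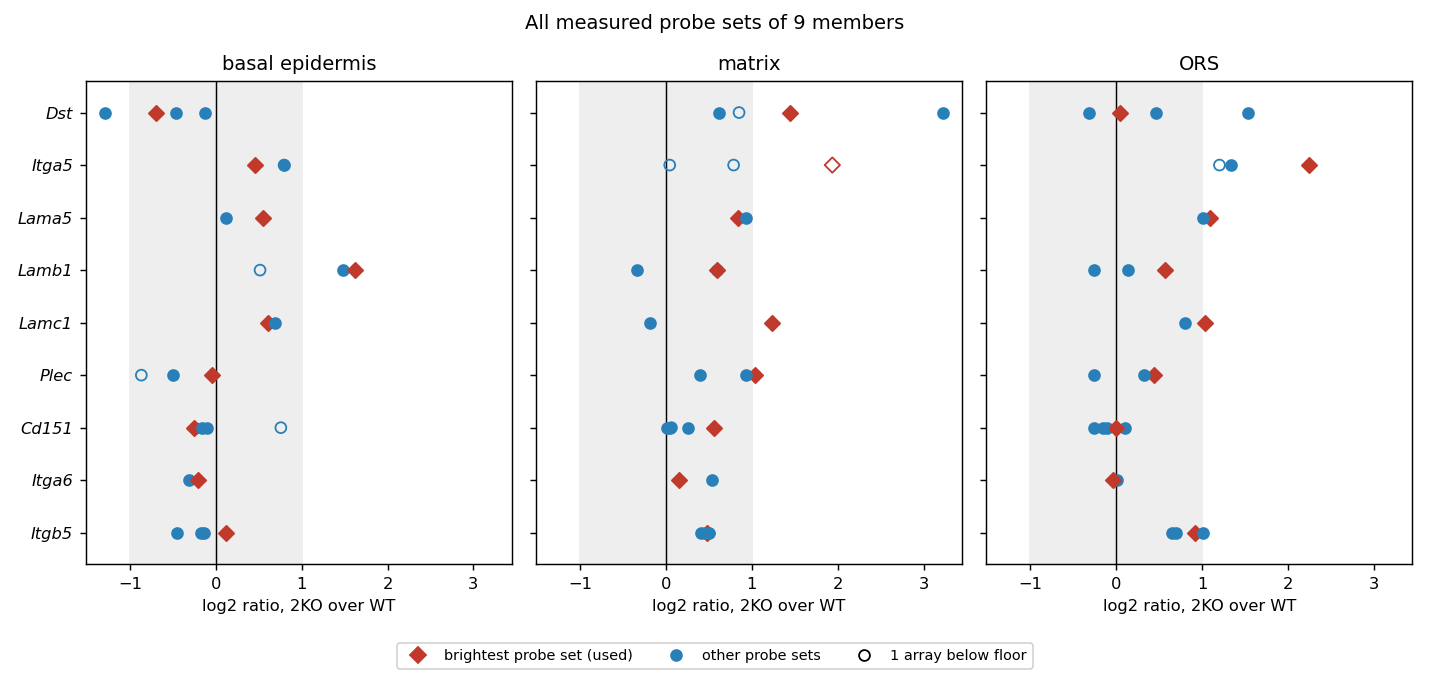
Log2 ratio of 2KO over WT for every measured probe set of 9 members with several, picked after their values were seen, with the brightest probe set as a red diamond, the others as blue circles, and open symbols where 1 array is below the floor. In matrix the probe sets of Dst range from 0.61 to 3.22, and those of Lamc1 fall on both sides of 0.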

How the data were processed

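RNA from 6 FACS-sorted samples, 1 array each, was labelled with biotin by in vitro transcription, per the labels' protocols. The authors deposited a linear intensity for each probe set on each array, made with MAS5 per the submitters' processing notes. Its version and detection calls are not given in the sources used here, and the series text names the array as MOE430A 2.0 in one place and as MOE430v2 in another. Each array has a 2% trimmed mean of 500, so arrays had been scaled to one total, which hides a shift common to most genes. Median signals ran from 72.6 to 99.0, and 47.7% to 53.1% of probe sets per array were above the floor. The number of arrays limits the precision, and signals near the floor are the least reliable.

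Of 45101 probe sets, 64 are controls, 34958 name 1 gene, 932 name several and 9160 are not listed in the platform annotation. Gene identifiers were found in RefSeq (GRCm38.p6) for 99.4%, and 0 symbols changed. Log2 ratios of floored signals were taken with Python 3.11.15, numpy 2.4.6 and pandas 2.3.3. Members and gene lists were chosen with earlier results of these data known, and no test was made, since each group has 1 array. Named are the hemidesmosome genes, every member past 2-fold, the other members with their widest ratios, and up to 4 genes of each list per population among those past 2-fold. Alternatives were other scalings, floors, folds and choices of probe sets.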

Additional observations from a re-analysis of the deposited data

Results flagged for a closer look

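The 4 members below stood at least 2-fold from WT in one population and at least 1.5-fold from it in the opposite direction in another. The difference between populations was not tested, since each group has 1 array. Lamb3 had a log2 ratio of 2KO over WT of 1.67 in matrix and -0.68 in basal epidermis, and Dst had 1.44 in matrix and -0.70 in basal epidermis. Itgb8 had 1.59 in matrix, -0.98 in basal epidermis and -0.69 in ORS. Itgb2 had 0.60 in matrix and -1.28 in ORS, both of them bounds, because 1 array of each pair was below the floor.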

How the results depend on the processing

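No paired analysis within a population was possible, because each group has 1 array and the labels carry no replicate numbers. For the same reason no array could be left out. A fit over the 3 populations would treat different cell types as replicates of one genotype effect, and was not made. Of 156 counts and medians recomputed under 9 alternatives, 123 moved by no more than 1.5 times (0.585 for a log2 median), 30 moved by more and 3 changed sign. Of 625 ratios of 18 members, 580 stayed within that limit, 45 moved by more, and 0 of the called ones changed sign. With the common median, members higher in 2KO ORS were 2 and the median of WT basal epidermis over WT ORS turned to 0.078. With the hybridisation controls, members higher were 3 in 2KO matrix and 3 in 2KO ORS, and 1 was lower in WT ORS over WT matrix. With quantile scaling the median of WT basal epidermis over WT ORS turned to 0.028. With the floor at the 25th percentile, 17 members were higher in 2KO matrix and 1 was lower in WT ORS over WT matrix. With the floor at the 75th percentile, 0 were lower in 2KO basal epidermis, 4 were higher in 2KO matrix, 3 were higher and 0 lower in 2KO ORS, 1 was higher and 3 were lower in WT basal epidermis over WT ORS (median 0.078), and 9 were higher in WT ORS over WT matrix. With the mean of probe sets, 0 were higher in 2KO basal epidermis, 5 were higher in 2KO matrix, 1 was lower in 2KO ORS, 2 were lower in WT basal epidermis over WT ORS, and 2 were lower in WT basal epidermis over WT matrix. Without probe sets marked x, s or a, 1 was higher in WT basal epidermis over WT ORS and 9 were higher in WT basal epidermis over WT matrix. At 1.5-fold, 5 were higher and 6 lower in 2KO basal epidermis, 15 higher in 2KO matrix, 10 higher and 5 lower in 2KO ORS, 5 higher in WT basal epidermis over WT ORS, and 1 lower in WT ORS over WT matrix. With members above the floor on both arrays only, an alternative chosen after seeing the data, 1 was lower in 2KO basal epidermis, 1 was lower in 2KO ORS and 1 was higher in WT basal epidermis over WT ORS. The last alternative and the 1.5-fold count differ by construction, since they test fewer members or use a lower bar; for the others the cause was not tested. For the other scalings, floors, folds and probe set choices, the share of all genes called was not computed. Those counts alone therefore do not tell a change of the members from a change of all genes. The distance of signals from the floor limits the ratios of Itga8, Itga5, Lama2, Lama1 and Itgb2.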
